A study of Homo sapiens with 18 samples.

Results

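The genes described here encode the nuclear lamina and the high mobility group box proteins of the HMGB family. They were picked out by symbol, with earlier results of these data known: LMNB1, LMNB2, LMNA, LBR, TMPO, HMGB1, HMGB2 and HMGB3 are 8 of the 40916 gene symbols counted, and each had 1 row in every library. The study cultured H2B-GFP reporter MCF10A cells, a non-transformed human mammary epithelial line, and unlabelled HCT116 cells, a human colorectal carcinoma line. The HCT116 line carried an altered gene, which is not named here. Each line was grown alone, and a mixed culture was described as holding both in equal parts; each culture was either non-irradiated (NIR) or irradiated (IR) with 10 Gy. The 6 groups of 3 biological replicates gave 18 poly(A)-selected libraries, harvested on day 2 according to the sample titles and 72 hours after irradiation according to the series text. MCF10A cells grew in F12:DMEM medium with horse serum, EGF, hydrocortisone, cholera toxin and insulin, and HCT116 cells in McCoy's medium with fetal bovine serum. Line, altered gene and medium therefore cannot be told apart. P-values measure the spread between these replicate libraries.

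The lamina is a filament meshwork under the inner nuclear membrane that anchors heterochromatin and gives the nucleus its shape. B-type lamins stay attached to the membrane, whereas A-type lamins also occur in the nuclear interior; LBR and the TMPO proteins (lamina-associated polypeptides) tether the meshwork to chromatin. HMGB proteins bend DNA without strong sequence preference, and HMGB1 can also be released from cells as an alarm signal. Falls of LMNB1 and HMGB2 have been described in senescent cultured cells.

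Total counts ranged from 25737818 to 40839835 per library. Each of the 8 genes had between 1030 and 44738 counts in each library and passed the filter on low counts in every comparison. Of 10 basal mammary markers, 9 were higher in non-irradiated MCF10A than in HCT116 without overlap. Of 10 intestinal markers, 6 were higher in non-irradiated HCT116 without overlap. The exceptions were CDH3 and the intestinal markers CDX1, VIL1, ASCL2 and LGALS4. Of all genes tested there, 38.7% were called higher in HCT116 and 36.1% lower, by the edgeR test described below and not by overlap. The intestinal markers CDX1 and ASCL2 were at 0 in every HCT116 library, and the summed intestinal level was 24.8 to 27.4 CPM (the count scaled to the total of its library, in counts per 1000000) in non-irradiated HCT116 against 2.31 to 3.32 CPM in MCF10A. The libraries labelled mixed held mostly HCT116 RNA: estimated from genes specific to one line, MCF10A contributed 0.447% ± 0.053 (SD, n = 3) of the RNA without irradiation and 1.24% ± 0.066 with it. Values from the mixed cultures come mostly from HCT116 RNA, which holds for each mixed comparison below.

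On GRCh38.p14, as RefSeq gives it, LMNB1 lies at chr5:126776623-126837020, LMNB2 at chr19:2428166-2456959, LMNA at chr1:156082573-156140081 and LBR at chr1:225401502-225428821. TMPO lies at chr12:98515573-98550351, HMGB1 at chr13:30456704-30617597, HMGB2 at chr4:173331376-173334358 and HMGB3 at chrX:150980507-150990771. Promoter windows were searched for motifs, since most of these genes moved together: the CCAAT box, bound by NF-Y, and the CHR element TTTGAA are both common in promoters of cell cycle genes. Motifs were searched on both strands of the 250 bases before a start that RefSeq lists near the principal one, which 6 of the 8 genes had. CCAAT occurred 3 times in the HMGB1 and HMGB3 windows, 2 times in TMPO and 1 time in LMNB1, and in neither the LMNB2 nor the LBR window. These counts include bases in annotated UTRs and coding exons, which made up all 250 bases of the LMNB1 window. Outside such bases CCAAT occurred 3 times for HMGB3, 2 times for HMGB1 and 0 times for TMPO. Of 35116 windows of that length, 32% held CCAAT at least once and 2.93% at least 3 times. TTTGAA occurred in the LMNB2 and HMGB3 windows and in 13.3% of all windows. The E2F motifs TTTCCCGC and TTTGGCGC occurred in none of these 6 windows, and in 1.93% of all. Below are the stretches before HMGB1 and HMGB3, the 2 richest in CCAAT, and before LMNB2, which has none, each cut to the bases outside annotated UTRs and coding exons. Capitals mark CCAAT (or TTTGAA) as read on the printed strand. The HMGB1 stretch is chr13:30465966-30466186 on the minus strand, the HMGB3 stretch chrX:150983085-150983285 on the plus strand and the LMNB2 stretch chr19:2456997-2457209 on the minus strand. The HMGB1 and HMGB3 stretches lie inside the span that RefSeq gives each gene, before one of its starts, and the LMNB2 stretch lies just outside its gene. These matches are a description of the letters and not evidence of binding.
HMGB1: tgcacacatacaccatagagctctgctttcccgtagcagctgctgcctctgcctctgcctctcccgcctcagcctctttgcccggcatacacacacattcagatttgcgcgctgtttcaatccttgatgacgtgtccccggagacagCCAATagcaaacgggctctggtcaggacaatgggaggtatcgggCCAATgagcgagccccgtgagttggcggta
HMGB3: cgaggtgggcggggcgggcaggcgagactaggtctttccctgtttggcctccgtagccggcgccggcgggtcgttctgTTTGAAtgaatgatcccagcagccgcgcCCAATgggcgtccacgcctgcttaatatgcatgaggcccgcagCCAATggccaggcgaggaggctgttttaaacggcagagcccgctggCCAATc
LMNB2: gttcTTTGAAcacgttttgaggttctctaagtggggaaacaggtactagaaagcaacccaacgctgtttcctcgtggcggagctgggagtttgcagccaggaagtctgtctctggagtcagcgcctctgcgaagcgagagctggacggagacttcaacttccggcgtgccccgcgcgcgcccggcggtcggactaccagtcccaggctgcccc

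Levels can be compared between genes only per length. Per kilobase of the principal transcript, non-irradiated MCF10A had 165.9 ± 5.81 CPM of HMGB1, 149.4 ± 6.63 of LMNA and 120.0 ± 3.92 of HMGB2. The lowest were HMGB3 at 56.9 ± 0.794, LMNB1 at 61.0 ± 1.35 and LMNB2 at 62.4 ± 1.94 CPM per kilobase (mean ± SD, n = 3). After irradiation LMNB1 was the lowest of the 8 in MCF10A, at 13.5 ± 0.34 CPM per kilobase, and LMNA the highest, at 131.5 ± 1.15. These lengths come from one transcript per gene, and transcript use was not measured.

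The comparison of irradiated with non-irradiated MCF10A asked how the normal mammary line responded to 10 Gy. All 8 genes were lower in irradiated MCF10A, where 55.4% of the 15154 genes tested were called, 29.2% lower and 26.2% higher (edgeR's quasi-likelihood test, Benjamini-Hochberg adjusted p under 0.05). Their median log2 fold change was -1.41, beside 0.0035 over all genes. Proliferation genes were lower in the same libraries: MKI67, a marker of cycling cells, went from 677 ± 19.9 to 231 ± 9.12 CPM, and TOP2A, the topoisomerase of dividing cells, from 595 ± 18.9 to 236 ± 8.68 CPM. All 30 genes of the proliferation list were called lower, with a median of -1.33, and the part of cycling cells in the lamina result was not tested. In these bulk libraries, fewer cells of a type and less RNA per cell cannot be told apart.

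LMNB1, a permanently farnesylated B-type lamin, had 179, 176 and 171 CPM in the 3 non-irradiated MCF10A libraries and 37.8, 39.1 and 39.8 CPM in the 3 irradiated ones. This was a 4.58-fold fall (log2 fold change -2.19, SE 0.051, edgeR adjusted p = 1.8e-22), the 7th lowest of all genes tested. Every irradiated library lay far below every control library, and the libraries of a group lay close together. LMNB2, the second B-type lamin, had 297, 296 and 281 CPM without and 154, 166 and 162 CPM with irradiation. Its fall was smaller (log2 fold change -0.88, SE 0.045, edgeR adjusted p = 9.6e-16), again without overlap between groups.

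LMNA, whose counts do not separate lamin A from lamin C, changed least. It had 484, 493 and 453 CPM without and 417, 424 and 418 CPM with irradiation in MCF10A. The log2 fold change was -0.21 (SE 0.041, edgeR adjusted p = 9.9e-05). The groups did not overlap, and the gap between the nearest libraries was narrow. With upper-quartile scaling the value was -0.12 (edgeR adjusted p = 0.014).

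The inner-membrane partners of the lamina also fell in MCF10A. LBR, the lamin B receptor and also a sterol reductase, had 340.4, 356 and 351 CPM without and 135, 139 and 131 CPM with irradiation (log2 fold change -1.39, SE 0.044, edgeR adjusted p = 3.2e-20). TMPO had 294, 298 and 300.1 CPM without and 109, 112 and 116 CPM with irradiation (log2 fold change -1.43, SE 0.044, edgeR adjusted p = 2.4e-20). For both genes the irradiated libraries lay well below all controls. The TMPO counts do not separate its isoforms.

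Among the HMGB genes, HMGB2, the member tied to proliferating cells, fell furthest in MCF10A. It had 219, 233 and 228 CPM without and 56.0, 61.9 and 57.7 CPM with irradiation, a log2 fold change of -1.98 (SE 0.052, edgeR adjusted p = 7.5e-22) and the 20th lowest of all genes. HMGB1, the abundant and near-ubiquitous member, had 875, 937 and 918 CPM without and 324, 340.3 and 318 CPM with irradiation (log2 fold change -1.50, SE 0.042, edgeR adjusted p = 2.5e-21). HMGB3, an X-linked member known from stem and progenitor cells, fell least of the 3. Its libraries had 199, 203 and 205 CPM without and 123, 135 and 123 CPM with irradiation (log2 fold change -0.69, SE 0.048, edgeR adjusted p = 8e-13). None of the 3 genes had an irradiated library within the range of its controls. The share of all genes without overlap between groups was not counted, in this or in the other comparisons.

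**Figure D1:**
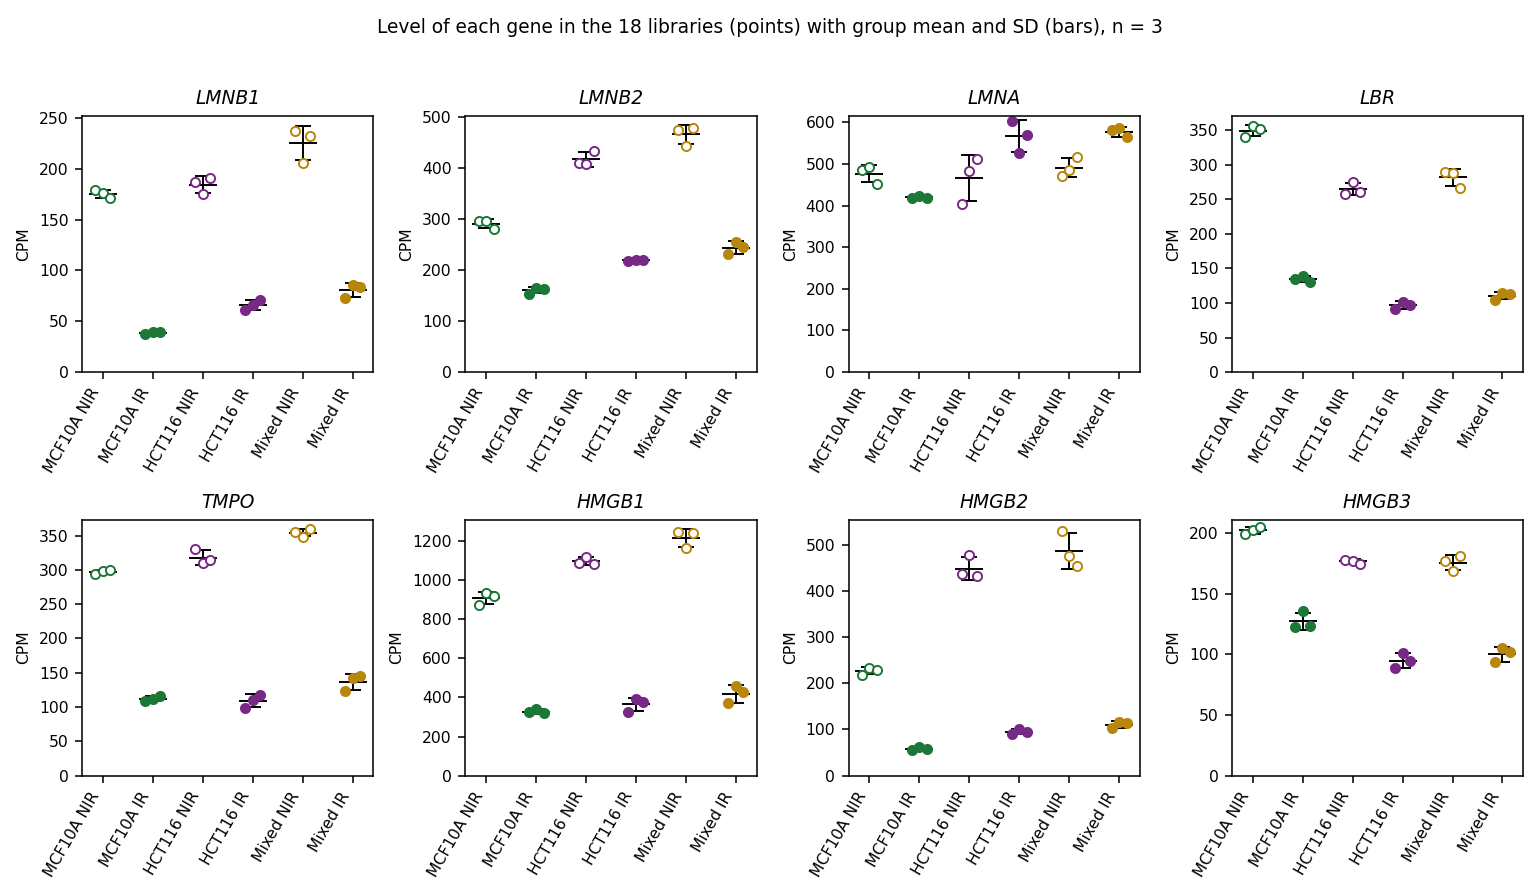
Level of each gene in CPM (vertical axis, from 0) in the 6 groups (horizontal axis); open points are non-irradiated and filled points irradiated libraries, and bars give the group mean and SD of 3 libraries. In each culture the filled points lie below the open ones for 7 genes, whereas LMNA lies lower in irradiated MCF10A and higher in irradiated HCT116 and mixed cultures.

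The same comparison in HCT116 asked how the carcinoma line responded. Here 7 of the 8 genes were lower and 1, LMNA, was higher, where 52.5% of the 16857 genes tested were called, 27.2% lower and 25.3% higher. The median over the 8 genes was -1.46, beside 0.0072 over all genes. MKI67 went from 1087 ± 69.8 to 302 ± 7.6 CPM and TOP2A from 401 ± 11.8 to 183 ± 13.6 CPM. Of the 30 proliferation genes 29 were called lower, with a median of -1.30; the other one was PCNA, the DNA polymerase clamp, at -0.00024 (SE 0.056, edgeR adjusted p = 0.997). The part of cycling cells in this result was likewise not tested.

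HMGB2 fell furthest in HCT116. It had 436, 477 and 431 CPM without and 89.6, 101 and 94.7 CPM with irradiation (log2 fold change -2.23, SE 0.064, edgeR adjusted p = 1e-17). HMGB1 had 1091, 1122 and 1085 CPM without and 326, 391 and 377 CPM with irradiation (log2 fold change -1.59, SE 0.063, edgeR adjusted p = 2.2e-15). Both sets of irradiated libraries lay below every control library. HMGB3 had 178, 177 and 175 CPM without and 88.7, 101 and 94.5 CPM with irradiation, again the smallest fall of the 3 (log2 fold change -0.89, SE 0.062, edgeR adjusted p = 3.7e-11).

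LMNB1 in HCT116 had 187, 175 and 191 CPM without and 60.6, 65.9 and 70.8 CPM with irradiation. The log2 fold change was -1.48 (SE 0.067, edgeR adjusted p = 1.8e-14), the 476th lowest of the genes tested. LMNB1 was thus lowered without overlap in this line too, but many more genes fell further than in MCF10A. LMNB2 had 409.9, 409 and 434 CPM without and 219, 221 and 221 CPM with irradiation (log2 fold change -0.92, SE 0.056, edgeR adjusted p = 3.4e-12).

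LMNA moved the other way. It had 404, 483 and 511 CPM in non-irradiated and 603, 527 and 569 CPM in irradiated HCT116, a log2 fold change of 0.29 (SE 0.073, edgeR adjusted p = 0.0019). The highest control library lay just below the lowest irradiated one. Replicate 1 of the controls was the low one, and without it the value was 0.18 (edgeR adjusted p = 0.017). LBR had 258, 275 and 261 CPM without and 90.6, 102 and 97.5 CPM with irradiation (log2 fold change -1.45, SE 0.062, edgeR adjusted p = 7.5e-15). TMPO had 330.2, 309.9 and 314 CPM without and 98.6, 111 and 117 CPM with irradiation (log2 fold change -1.54, SE 0.065, edgeR adjusted p = 5.5e-15). Both membrane genes were separated cleanly between the groups.

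The mixed cultures gave the same counts: 7 of the 8 genes were lower and LMNA was higher, where 49.4% of the 16906 genes tested were called, 25.4% lower and 24% higher. The median over the 8 genes was -1.39, beside 0.012 over all genes. LMNB1 had 237, 206 and 232 CPM without and 72.4, 85.7 and 84.1 CPM with irradiation (log2 fold change -1.50, SE 0.069, edgeR adjusted p = 2.4e-13). HMGB2 had 531, 475 and 455 CPM without and 102, 116 and 113 CPM with irradiation (log2 fold change -2.17, SE 0.065, edgeR adjusted p = 4.7e-16). LMNA had 472, 484 and 517 CPM without and 581, 587 and 563 CPM with irradiation (log2 fold change 0.21, SE 0.053, edgeR adjusted p = 0.0028). None of these 3 genes had libraries of one treatment within the range of the other. The other falls, all without overlap, were -1.57 for HMGB1, -1.40 for TMPO, -1.38 for LBR, -0.96 for LMNB2 and -0.84 for HMGB3. All 30 proliferation genes were called lower in these libraries, with a median of -1.16.

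Whether the lines differed in their response was tested as the response of HCT116 minus that of MCF10A. Of the 8 genes 2 were called higher and 2 lower, where 37.3% of the 18179 genes tested were called, 15.4% higher and 21.9% lower. The median over the 8 genes was -0.15 and that over all genes -0.10, and the latter moved to -0.006 when mitochondrial transcripts and the top 10 genes by abundance were dropped. LMNB1 fell less in HCT116 than in MCF10A, by a difference of 0.64 (SE 0.083, edgeR adjusted p = 9.9e-07). LMNA differed by 0.42 (SE 0.094, edgeR adjusted p = 0.00091), with a fall in MCF10A and a rise in HCT116. These are the 2 lamins whose response separated the lines, and both differences held under every alternative tried, between 0.59 and 0.76 for LMNB1 and between 0.31 and 0.57 for LMNA.

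HMGB2 fell further in HCT116, by -0.33 (SE 0.081, edgeR adjusted p = 0.002), and HMGB3 by -0.27 (SE 0.078, edgeR adjusted p = 0.0073). Both lie nearer to the median of all genes than the lamin differences. Without irradiated MCF10A replicate 2 the HMGB2 value was -0.18 (edgeR adjusted p = 0.11). Without any one of the 3 irradiated MCF10A libraries the HMGB3 value lay between -0.20 and -0.12, with the call lost each time. The median over all genes moved as well, from -0.10 to 0.0055, 0.0081 and 0.0069 without replicates 1, 2 and 3. The part of scaling in these lost calls was not tested. The other 4 genes were not called: TMPO at -0.19 (SE 0.077, edgeR adjusted p = 0.054), HMGB1 at -0.17 (SE 0.077, adjusted p = 0.094), LBR at -0.13 (SE 0.073, adjusted p = 0.17) and LMNB2 at -0.11 (SE 0.069, adjusted p = 0.22). TMPO was called with upper-quartile factors, with halved counts, and without non-irradiated HCT116 replicate 2 or irradiated HCT116 replicate 3, at -0.20 to -0.24 (edgeR adjusted p = 0.02 to 0.048).

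**Figure D2:**
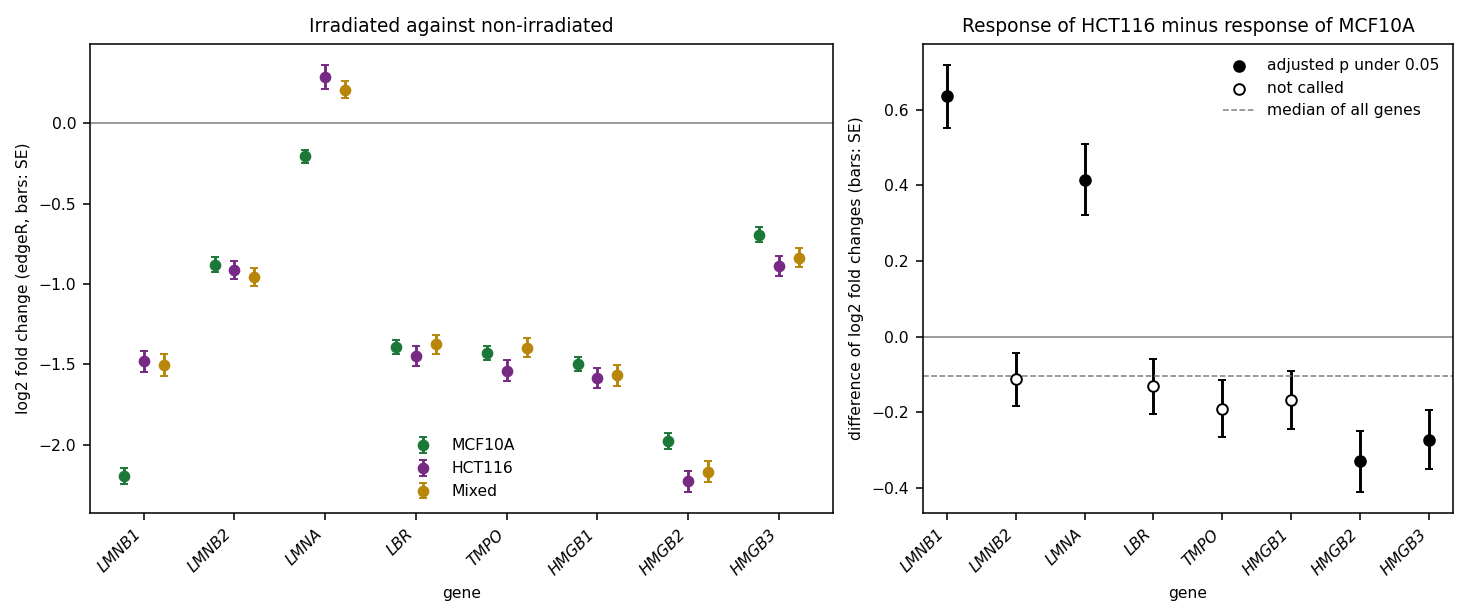
Left, log2 fold change of irradiated against non-irradiated libraries (vertical axis) for each gene (horizontal axis) in MCF10A, HCT116 and mixed cultures; right, the response of HCT116 minus that of MCF10A, filled where the adjusted p was under 0.05; bars give the standard error of the edgeR fit. LMNB1 at 0.64 and LMNA at 0.42 stand above 0 on the right, and HMGB2 at -0.33 and HMGB3 at -0.27 below it.

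Ratios within a library do not depend on scaling between libraries. There were 0.369 ± 0.0109 LMNB1 counts per LMNA count in non-irradiated and 0.0927 ± 0.0023 in irradiated MCF10A (mean ± SD, n = 3), which is 3.98-fold lower. In HCT116 the ratio went from 0.4 ± 0.0547 to 0.117 ± 0.014, or 3.43-fold lower, and in the mixed cultures from 0.459 ± 0.0392 to 0.14 ± 0.0134, or 3.28-fold lower. HMGB2 made up 16.9% ± 0.042 of the summed HMGB1, HMGB2 and HMGB3 counts in non-irradiated and 11.4% ± 0.222 in irradiated MCF10A. The share was larger in HCT116 to begin with, 26.0% ± 0.768, and went to 17.2% ± 0.536; in the mixed cultures it went from 25.9% ± 1.52 to 17.6% ± 0.517. For both measures the groups did not overlap in any culture, and each of the 6 exact permutation tests gave p = 0.1, 2-sided and unchanged by Benjamini-Hochberg adjustment, which is the smallest that 3 against 3 libraries allow. In every irradiated library LMNB1 was lower relative to LMNA, and HMGB2 lower relative to the HMGB sum, than in any control library of the same culture.

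**Figure D3:**
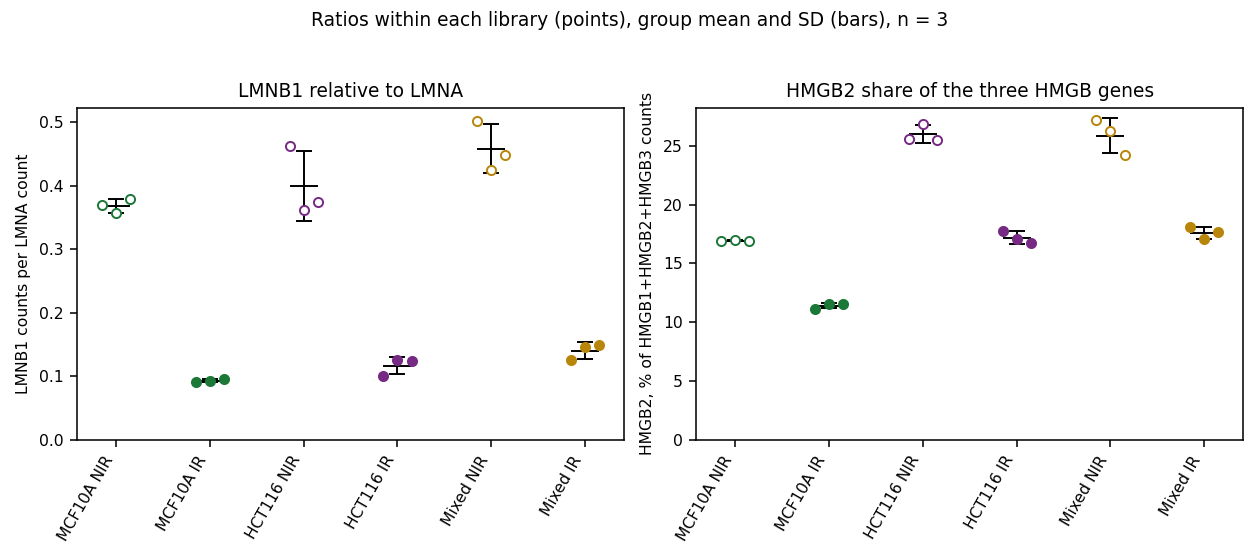
LMNB1 counts per LMNA count (left) and HMGB2 as a percentage of the HMGB1, HMGB2 and HMGB3 counts (right) on axes from 0, in the 6 groups; points are libraries and bars the mean and SD of 3. In each culture the irradiated points lie below the non-irradiated ones, and the MCF10A points of the HMGB2 share, 16.9% and 11.4%, lie below those of HCT116 with the same treatment.

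Between the non-irradiated lines, 2 of the 8 genes were called higher in HCT116 and 4 lower, where 74.8% of the 16568 genes tested were called, 38.7% higher and 36.1% lower. HMGB2 was higher in HCT116, at 448 ± 25.3 against 227 ± 7.41 CPM (log2 difference 0.79, SE 0.054, edgeR adjusted p = 3.3e-10), and so was LMNB2, at 418 ± 14.5 against 291 ± 9.04 CPM (log2 difference 0.32, SE 0.052, edgeR adjusted p = 2.5e-05). LBR was lower, at 265 ± 9.22 against 349 ± 7.94 CPM (log2 difference -0.60, SE 0.051, edgeR adjusted p = 5.9e-09), as was HMGB3 (log2 difference -0.40, SE 0.049, edgeR adjusted p = 9.5e-07). These 4 kept their direction and call under every alternative tried; with upper-quartile factors LMNB2 was at 0.52, LBR at -0.39 and HMGB3 at -0.19. LMNB1 at -0.13 (edgeR adjusted p = 0.042) and LMNA at -0.23 (edgeR adjusted p = 0.009) were also called lower, and with upper-quartile factors LMNB1 was at 0.08 and LMNA at -0.03, neither called. LMNB1 also lost its call with DESeq2, with halved counts, with all 18 libraries in 1 fit, and without MCF10A replicate 1 or 2 or HCT116 replicate 1 or 2, with adjusted p up to 0.20. Without HCT116 replicate 1 LMNA was at -0.13 (edgeR adjusted p = 0.046). In CPM, the LMNB1 mean was 175.5 in MCF10A and 184 in HCT116, opposite in direction to the scaled difference. TMPO at -0.10 (edgeR adjusted p = 0.072; 0.10 with upper-quartile factors) and HMGB1 at 0.07 (edgeR adjusted p = 0.18) were not called. With upper-quartile factors HMGB1 was called, at 0.28 (edgeR adjusted p = 5.5e-05), and TMPO was called at -0.12 with no filter or without HCT116 replicate 1 (edgeR adjusted p = 0.045 and 0.044). Upper-quartile factors moved the median over all genes from 0.05 to 0.25 in this comparison.

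Between the irradiated lines 4 genes were higher in HCT116 and 3 lower, where 74.9% of the 16932 genes tested were called, 38.1% higher and 36.8% lower. LMNB1 was now clearly higher in HCT116, at 65.7 ± 5.08 against 38.9 ± 0.979 CPM (log2 difference 0.53, SE 0.069, edgeR adjusted p = 1.8e-07). HMGB2 was higher by 0.47, LMNB2 by 0.22 and LMNA by 0.20, and LBR was lower at -0.71 and HMGB3 at -0.65. Scaled by library size alone, LMNB2 was at 0.45, LMNA at 0.43 and HMGB3 at -0.42. TMPO was called lower at -0.27 (edgeR adjusted p = 0.00017), but with upper-quartile factors it was at -0.09 (edgeR adjusted p = 0.16). HMGB1 was at -0.08 (edgeR adjusted p = 0.22), and its direction turned with upper-quartile factors, to 0.11. Without HCT116 replicate 2 HMGB1 was called, at -0.14 (edgeR adjusted p = 0.034).

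Over all 6 groups the order of the levels differed by gene. LMNB1 ran from irradiated MCF10A at 38.9 CPM through irradiated HCT116 at 65.7 and irradiated mixed at 80.7 to non-irradiated MCF10A at 175.5, HCT116 at 184 and mixed at 225 CPM. In a fit of all 18 libraries each step of that order was called except that from non-irradiated MCF10A to HCT116, whose libraries overlapped. LMNB2 and HMGB2 had the same order, HMGB2 with 1 neighbouring pair, non-irradiated HCT116 and mixed, not called. LBR and HMGB3 began instead with irradiated HCT116, at 96.6 and 94.9 CPM, and ended with non-irradiated MCF10A, at 349 and 202 CPM. TMPO spanned 109 CPM in irradiated HCT116 to 355 CPM in non-irradiated mixed cultures, and HMGB1 spanned 327 CPM in irradiated MCF10A to 1218 CPM in non-irradiated mixed cultures. LMNA ran only from 419.5 CPM in irradiated MCF10A to 577 CPM in irradiated mixed cultures, with overlapping libraries at 4 of its 5 steps; its treated and untreated groups did not form separate ends of the order.

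The mixed cultures were compared with HCT116 alone. Without irradiation 1 of the 8 genes was called, where 2.04% of the 16455 genes tested were called, 0.887% higher and 1.15% lower: LMNB1 was 1.23-fold higher in the mixed cultures (log2 difference 0.30, SE 0.066, edgeR adjusted p = 0.02). Its mixed libraries, at 206 to 237 CPM, all lay above those of HCT116, at 175 to 191 CPM. The other 7 genes were not called: LMNB2 was at 0.17, TMPO at 0.17, HMGB1 at 0.16, HMGB2 at 0.13, LBR at 0.10, LMNA at 0.09 and HMGB3 at 0.0057. Of the 6 fits that left out 1 library 4 lost the LMNB1 call: without HCT116 replicate 1 or 2, or mixed replicate 1 or 3, the value was 0.26 to 0.30. With irradiation 4 genes were called higher, where 8.56% of the 17137 genes tested were called, 5.08% higher and 3.48% lower. These were TMPO at 0.32 (SE 0.064, edgeR adjusted p = 0.0011), LMNB1 at 0.29 (SE 0.068, adjusted p = 0.0058), HMGB2 at 0.20 (SE 0.061, adjusted p = 0.033) and LBR at 0.18 (SE 0.059, adjusted p = 0.047). HMGB1 at 0.19 (adjusted p = 0.062), LMNB2 at 0.14 (adjusted p = 0.089), HMGB3 at 0.07 and LMNA at 0.02 were not called by edgeR; in the fit of all 18 libraries HMGB1 and LMNB2 were called, at 0.22 and 0.17. HMGB1 was also called with no filter (0.19) and without HCT116 replicate 2 (0.24) or mixed replicate 1 (0.27), and LMNB2 without mixed replicate 1 (0.17). The TMPO call held in each fit with 1 library left out; LMNB1 lost it without mixed replicate 2 or 3, and HMGB2 and LBR lost it without either of those and without HCT116 replicate 1 or 3, where HMGB2 lay between 0.16 and 0.19 and LBR between 0.14 and 0.19. In the same irradiated libraries 18 of the 30 proliferation genes were called higher and none lower, with a median of 0.26 beside 0.0032 over all genes; MKI67 was at 0.27 (SE 0.057, edgeR adjusted p = 0.0023). The part of proliferation in the lamina and HMGB differences was not tested. The response of the mixed cultures minus that of HCT116 gave no call among the 8 genes, with LMNA at -0.07, LMNB2 at -0.03, LMNB1 at -0.01, HMGB1 at 0.03, HMGB3 at 0.06, HMGB2 at 0.07, LBR at 0.08 and TMPO at 0.15, where 0.83% of 18072 genes were called by edgeR, 0.681% higher and 0.149% lower. At an unadjusted p under 0.05 the count among the 8 was 0 as well, and DESeq2 called 0.

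The other genes of the nuclear envelope and of high mobility group proteins were described by fixed lists, each by its count of calls and its median, to be read against all genes. In MCF10A 26.2% of all genes tested were called higher and 29.2% lower, in HCT116 25.3% and 27.2%, and for the response of HCT116 minus MCF10A 15.4% and 21.9%. Among 20 inner nuclear membrane proteins and members of the LINC complex, which links the lamina to the cytoskeleton, 19 were tested in MCF10A; 5 rose, 6 fell, and the median was 0.002 after irradiation, with both counts near the shares over all genes. SYNE3, a nesprin of the outer membrane, was at -1.15 (SE 0.13), NRM at -1.08 (SE 0.13) and NEMP1 at -0.81 (SE 0.061), whereas TMEM38A, a cation channel, was at 1.10 (SE 0.32). In HCT116, 6 of 20 rose and 10 fell, with a median of -0.26, beside 25.3% and 27.2% over all genes. Named by size there, NRM was at -1.63 (SE 0.17), LPIN1, a phosphatidate phosphatase, at -1.40 (SE 0.1), SYNE2, nesprin-2, at -1.17 (SE 0.075) and NEMP1 at -1.12 (SE 0.067). The response differed between lines for 13 of these 20 genes, 11 lower and 2 higher in HCT116, beside 21.9% and 15.4% over all genes, with a median of -0.36 beside -0.10. SYNE2 had the widest difference, -1.25 (SE 0.096, edgeR adjusted p = 1.6e-10), followed by TMEM201, a lamina-binding membrane protein, at 1.09 (SE 0.19, edgeR adjusted p = 5.1e-05).

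Of 8 genes of lamin processing and farnesylation, 2 rose and 2 fell in each line, near the shares over all genes, with medians of -0.11 in MCF10A and -0.05 in HCT116. ZMPSTE24, the protease that completes maturation of prelamin A, was among those that rose, at 0.19 (SE 0.047, edgeR adjusted p = 0.0014) in MCF10A and 0.74 (SE 0.064, edgeR adjusted p = 1.4e-09) in HCT116. The difference of 0.47 between the lines was called (SE 0.079, edgeR adjusted p = 3.2e-05). FDPS, which makes the farnesyl precursor, was lower in both, at -0.24 (SE 0.053) and -0.51 (SE 0.079), as was ICMT, the methyltransferase of farnesylated proteins, at -0.20 (SE 0.055) and -0.39 (SE 0.068). ZMPSTE24 and LMNA were both higher in irradiated HCT116.

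Most chromatin partners of the lamina fell. Of 14 genes, 13 were called lower in MCF10A and 11 in HCT116, and none higher, with medians of -0.54 and -0.43, beside 29.2% and 27.2% of all genes called lower. UHRF1, which reads methylated DNA and histones, was at -1.32 (SE 0.049) in MCF10A and -1.01 (SE 0.062) in HCT116. SUV39H1, a heterochromatin histone methyltransferase, was at -1.27 (SE 0.11) and -1.20 (SE 0.14), and CBX5, a heterochromatin protein, at -0.75 (SE 0.04) and -0.83 (SE 0.054). The nuclear pore list had 26 of 30 genes lower and none higher in MCF10A, with a median of -0.66, and 20 lower and 3 higher in HCT116, with a median of -0.35, beside 29.2% and 27.2% of all genes called lower. Its response differed between the lines for 17 genes, 16 of them higher in HCT116, beside 37.3% of all genes called and 15.4% higher, with a median of 0.23 beside -0.10. NUP210, a pore membrane protein, was at -1.58 (SE 0.15) in MCF10A and -0.52 (SE 0.058) in HCT116, a difference of 0.98 (SE 0.13, edgeR adjusted p = 1.1e-06).

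Other high mobility group genes fell in part. In MCF10A 13 of 18 were lower and 2 higher, with a median of -0.28, and in HCT116 11 of 17 were lower and 2 higher, with a median of -0.30, beside 29.2% and 27.2% of all genes called lower. HMGN2, a nucleosome-binding protein, was at -1.64 (SE 0.042) in MCF10A and -1.22 (SE 0.062) in HCT116, and SSRP1, a subunit of the histone chaperone FACT, at -1.11 (SE 0.043) and -1.13 (SE 0.056). HMGN5 was at -1.83 (SE 0.13) in MCF10A, and its response differed by 1.24 between the lines (SE 0.19, edgeR adjusted p = 1.4e-05). Of the 8 receptors and cofactors of HMGB1 tested, 4 were lower and 2 higher in MCF10A, with a median of -0.27, and 6 were lower and 1 higher in HCT116, with a median of -0.58, beside the same shares over all genes. The 2 that rose in MCF10A were CD24, a surface glycoprotein that binds HMGB1, at 1.58 (SE 0.063, edgeR adjusted p = 6.5e-18) and TLR2, an innate immune receptor, at 1.19 (SE 0.16, edgeR adjusted p = 5e-07). SET, a histone chaperone, fell in both lines, at -0.89 (SE 0.039) and -0.70 (SE 0.054). CD24 was at 0.39 (SE 0.091, edgeR adjusted p = 0.00099) in HCT116, and the difference of -1.27 was called (SE 0.11, edgeR adjusted p = 9.9e-10).

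**Figure D4:**
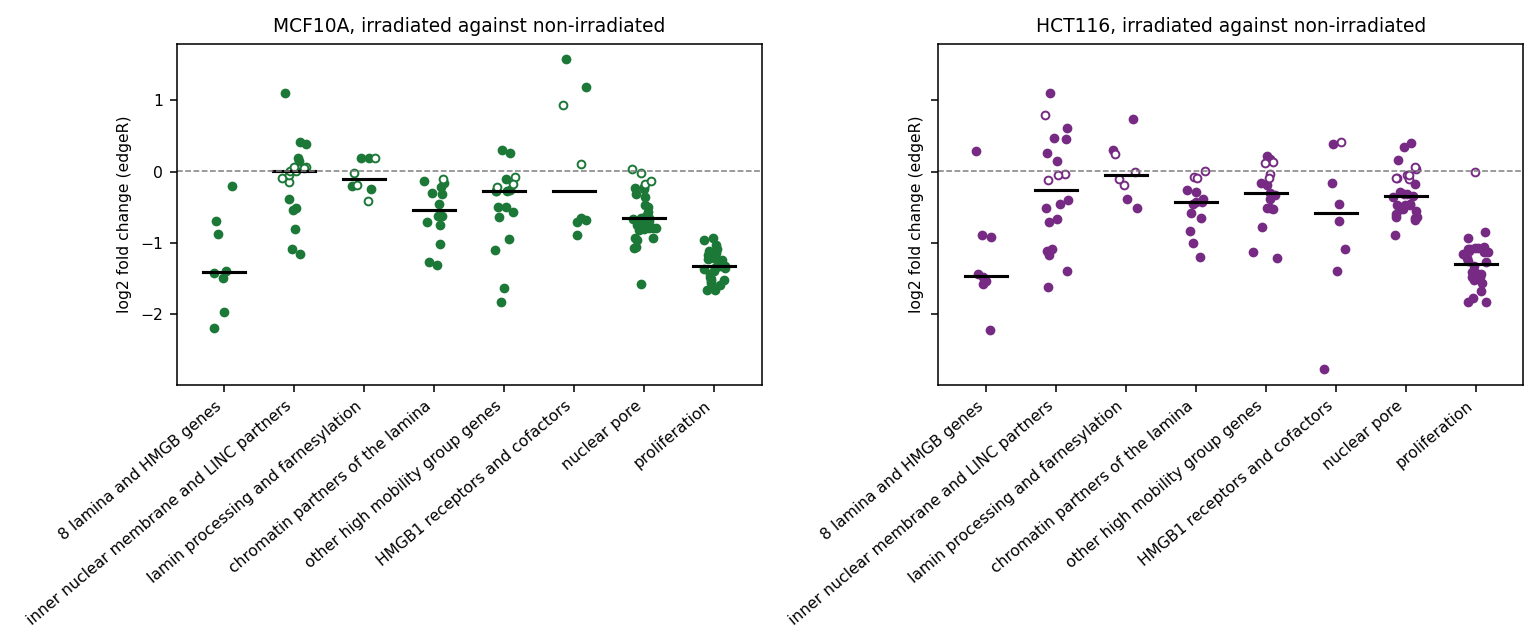
Log2 fold change after irradiation (vertical axis) of each gene of the lamina and HMGB group and of 7 lists (horizontal axis) in MCF10A (left) and HCT116 (right); filled points had an adjusted p under 0.05, black lines are list medians and the dashed line is the median of all genes. The median of the 8 genes, -1.41 in MCF10A and -1.46 in HCT116, lies beside that of the proliferation list, -1.33 and -1.30, and below those of the other 6 lists.

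The genes whose pattern was most like that of each member were ranked by Pearson's r of log2(CPM + 1) over the 18 libraries, among 9921 genes with a mean of at least 10 CPM. This is a description over libraries that share lines, treatments and depth. For LMNB1 they included SKA3 (r = 0.993) and UHRF1, and for LMNB2 they were DNMT1 (r = 0.994), MCM4 and KIF22. For LBR they were UBE2T (r = 0.995), CENPF and ANP32E, and for TMPO TTK (r = 0.995), C4orf46 and SPC24. HMGB1 was most like PLK4 (r = 0.995), SSRP1 and TMPO, HMGB2 most like STMN1 (r = 0.998), NCAPG2 and MKI67, and HMGB3 most like GPSM2 (r = 0.988), SAP30 and LBR. LMNA had lower values and other neighbours, GET3 (r = 0.943), MT-TP and PYCR3.

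Related rows could share reads with the members. The counts list 48 HMGB1 pseudogene rows, which summed to 2.57% to 5.20% of the HMGB1 counts of a library, and 29 HMGB3 pseudogene rows, which summed to 0.486% to 3.84%. HMGB2 had 1 such row, at up to 1.11% of its counts, and TMPO 2, at up to 0.262%. Values for these 4 genes are uncertain, by an amount that these rows do not bound, since how reads with several matches were counted is not given in the sources used here. The antisense row TMPO-AS1 had 0.96% to 1.72% of the TMPO counts, both summed over the libraries of each group. Whether strand was used in counting is likewise not given in those sources.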

How the data were processed

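Poly(A)-selected RNA was sequenced as stranded paired-end libraries from 18 cultures. The authors deposited whole-number counts per gene symbol for each library; fastp, STAR, featureCounts and genome build GRCh38 are named, per the submitters' processing notes, and the annotation, strand setting and handling of read pairs are not given in the sources used here. Among counts of 1 to 10, 68.3% were even, so both mates of a fragment may have been counted; halved counts were 1 of the alternatives. Such double counting would make counting error larger than the counts imply.

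The 9 comparisons were fitted over all genes on the counts with edgeR 4.0.16 (R 4.3.3): TMM factors, filterByExpr, quasi-likelihood test, 2-sided, Benjamini-Hochberg adjustment over all genes tested, calls at adjusted p under 0.05. Only the groups compared entered a fit, and the order of groups used all 18 libraries. On simulated data with 200 changed genes, 100% of 2-fold and 4-fold changes were recovered in MCF10A, with 16 calls among the unchanged of 15106 genes, and 100% in HCT116, with 20 among 16770. The response difference between lines recovered 100%, with 4 calls among 17604. The changed genes were drawn from those with a mean of at least 10 CPM, as many raised as lowered. Far fewer genes changed than were called in the irradiation comparisons, so scaling under such wide change was not tested. Ratios used exact permutation tests. Samples were grouped by their titles. The 8 genes and all lists were chosen with earlier results of these data known. Text names all 8 genes in each comparison and, from the lists, among the up to 4 called genes with the largest change per comparison; a gene named beside another comparison, and PCNA, the 1 uncalled proliferation gene in HCT116, were named after their values were seen. The share of MCF10A RNA used genes with at least 20 CPM in one line and at most 1 CPM in the other. Replicate numbers were not used to pair the samples, since they are not stated to mark a shared origin. Residual correlations of same-numbered libraries lay between -0.162 and 0.209, and 0 of 15 group pairs had all 3 above 0.1. The largest value lay between non-irradiated HCT116 and mixed cultures (0.136, -0.004 and 0.209 for replicates 1 to 3). Between the irradiated ones the values were 0.181, 0.069 and 0.052. With 3 libraries a group, these correlations cannot decide whether the samples were paired. Alternatives were DESeq2 1.42.0, upper-quartile factors, library size alone, leaving out mitochondrially encoded and the 10 most abundant genes, no filter, halved counts, 1 fit of all 18 libraries, a replicate block, and leaving out each library. A check of the gene altered in the HCT116 line and 1 gene of the pattern ranking are not reported here.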

Additional observations from a re-analysis of the deposited data

Results flagged for a closer look

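The response to irradiation differed between HCT116 and MCF10A, by the test of the difference itself, for 4 of the 8 genes. Over all genes, 37.3% of the 18179 tested were called, 15.4% higher and 21.9% lower. The difference of log2 fold changes (HCT116 minus MCF10A) was 0.64 for LMNB1 and 0.42 for LMNA, and the median over all genes was -0.10. It was -0.33 for HMGB2 and -0.27 for HMGB3. Both calls were lost when irradiated MCF10A replicate 2 was left out, at -0.18 and -0.12 (edgeR adjusted p = 0.11 and 0.29). HMGB3 also lost its call without irradiated MCF10A replicate 1 or 3, and in 3 of the 8 alternatives that left out no library.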

How the results depend on the processing

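All 24 irradiation results of the 8 genes (MCF10A, HCT116 and mixed) kept direction and call under every alternative, which gave 336 refitted values in all. Between the non-irradiated lines, upper-quartile factors and library size alone gave 2 genes lower, with LMNB1 at 0.076 and 0.072 and TMPO at 0.10 and 0.099; between the irradiated lines they put HMGB1 at 0.11 and 0.16 (the latter with edgeR adjusted p = 0.015). The response of HCT116 minus MCF10A had 1 gene lower when mitochondrial transcripts and the top 10 genes by abundance were dropped, with no filter and with all 18 libraries in 1 fit, since HMGB3 lost its call (-0.17 each). With 1 library left out that count was 0 to 3, and LMNB2 lay between -0.13 and 0.017. Genes called between non-irradiated mixed and HCT116 cultures were 335, and 576 with DESeq2, 671 with no filter and 768 with all 18 libraries, where 2 of the 8 were higher; HMGB3 was at -0.012 with upper-quartile factors and -0.0093 with library size alone. With 1 library left out these counts were 145 to 313 genes and 0 to 1 of the 8, with HMGB3 between -0.018 and 0.034 and LMNA between -0.012 and 0.17. With irradiation the 1467 genes called became 866 to 1312, the 4 higher became 1 to 6, and LMNA lay between -0.031 and 0.067. LBR lost its call there with upper-quartile factors (edgeR adjusted p = 0.053). The 150 genes called for the response of mixed minus HCT116 were 327 with DESeq2, 336 with no filter and 64 to 197 with 1 library left out. LMNB1, not called there, was at 0.011 with library size alone, 0.0037 with all 18 libraries and between -0.091 and 0.032 with 1 left out, LMNA between -0.18 and 0.0041, HMGB1 between -0.069 and 0.081 and HMGB3 between -0.0052 and 0.097. With the replicate block 716 genes were called between non-irradiated and 2220 between irradiated mixed and HCT116 cultures, the latter with 6 of the 8 higher (LMNB2 at 0.14 and HMGB1 at 0.19 besides, edgeR adjusted p = 0.015 and 0.00011), and LMNB1 lost its call between the non-irradiated lines (-0.13, edgeR adjusted p = 0.067); the block changed no other call of the 8. The share of MCF10A RNA was 0.345% and 1.07% at a minimum of 50 CPM. The cause of these changes was not tested. Leaving out single libraries of the mixed cultures for that share was chosen after seeing the data. Depth gave at least 1030 counts for each gene and library, and intervals beyond counting error rest on 3 libraries a group.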

Other observations

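HMGA2, an architectural chromatin protein of the other high mobility group list, was higher in mixed than in HCT116 cultures without irradiation (log2 difference 0.55, SE 0.075, edgeR adjusted p = 0.00025) and with it (0.53, SE 0.05, edgeR adjusted p = 5.8e-09). Between the non-irradiated lines it was lower in HCT116 (-0.18, SE 0.064, edgeR adjusted p = 0.017). CD24 was higher in irradiated mixed than in irradiated HCT116 cultures (0.64, SE 0.081, edgeR adjusted p = 1.7e-06) and was lower in irradiated HCT116 than in irradiated MCF10A (-3.73, SE 0.068, edgeR adjusted p = 2.6e-25). The part of the MCF10A RNA, 1.24% in irradiated mixed libraries, in the CD24 value was not tested.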
